A study of Mus musculus with 16 samples.

Results

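Ucn3, Aldh1a3, Cck, Gast, Neurog3, Npy, Cd81, Dlk1 and Fev are genes used to tell mature β cells from immature or dedifferentiated ones. They were chosen by symbol, and all 9 were found among the 16815 genes that the deposited islet tables have in common. The tables hold RNA sequencing of pancreatic islets in 16 libraries, 4 in each of 4 groups. Flox mice were homozygous for a B7-H4 (Vtcn1) allele with loxP sites around exon 2, carried no Cre, and were fed normal chow. B7-H4 cKO mice (cKO) carried the same floxed allele on both chromosomes together with Rip-Cre, a Cre recombinase driven by the rat insulin II promoter, and were fed the same chow. The HFD-fed groups were Flox mice without Cre that started the diet at 6 weeks of age, received virus after 8 weeks on it and gave islets 5 weeks later. AAV2/8-Ctrl mice (Ctrl) received a control virus, and AAV2/8-Ins2-B7H4 mice (OE) a virus carrying B7-H4 under an insulin promoter. All mice were on a C57BL/6J background. Since the Flox controls had no Rip-Cre, an effect of the transgene and one of the deletion cannot be told apart in these libraries. The age of the chow-fed mice and the number of mice per library were not given in the sources used here, so the p-values measure only the spread between these libraries.

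β cells arise from progenitors that transiently switch on Neurog3, the transcription factor that starts the endocrine programme, and then Fev, an ETS-family transcription factor also known from serotonergic neurons. After birth they mature, and in the mouse the peptide urocortin 3 (Ucn3) appears as they become responsive to glucose. Under metabolic stress they can lose this identity, a state marked by Aldh1a3, a retinaldehyde dehydrogenase, and by the gut-type peptides gastrin (Gast) and cholecystokinin (Cck). Npy (neuropeptide Y), the tetraspanin Cd81 and the imprinted Notch-related membrane protein Dlk1 are associated with immature β cells. In the GENCODE vM21 annotation of GRCm38 the maturity marker lies at chr13:3940688-3945349 (minus strand). The dedifferentiation markers are Aldh1a3 on the minus strand at chr7:66390890-66427517, Cck on the minus strand at chr9:121489824-121495694 and Gast on the plus strand at chr11:100334407-100336996. The progenitor factors are Neurog3 on the plus strand at chr10:62133090-62134763 and Fev on the minus strand at chr1:74881509-74885419. The remaining members are Npy on the plus strand at chr6:49822710-49829507, Cd81 on the plus strand at chr7:143052739-143067934 and Dlk1 on the plus strand at chr12:109452823-109463336.

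The promoters of the members whose libraries did not overlap between groups are shown for reference. They are the 250 bases before the RefSeq start site (GRCm38.p6), written 5′ to 3′ on the strand of the gene, from chr13:3945350-3945599 (minus strand) for Ucn3, chr7:143052500-143052749 (plus) for Cd81, chr6:49822460-49822709 (plus) for Npy and chr12:109452573-109452822 (plus) for Dlk1. Capitals mark the E-box CANNTG, the letters bound by basic helix-loop-helix factors such as Neurog3, which read the same on both strands.
Ucn3: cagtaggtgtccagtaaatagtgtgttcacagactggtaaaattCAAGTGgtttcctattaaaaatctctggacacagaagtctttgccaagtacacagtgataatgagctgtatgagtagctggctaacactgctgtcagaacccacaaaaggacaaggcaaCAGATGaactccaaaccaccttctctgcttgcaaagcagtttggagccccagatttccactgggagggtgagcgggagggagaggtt
Cd81: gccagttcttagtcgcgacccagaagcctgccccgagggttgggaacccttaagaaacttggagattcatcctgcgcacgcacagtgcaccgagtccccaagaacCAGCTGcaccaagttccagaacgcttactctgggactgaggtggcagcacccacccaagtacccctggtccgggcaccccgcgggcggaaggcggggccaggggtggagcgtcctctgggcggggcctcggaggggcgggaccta
Npy: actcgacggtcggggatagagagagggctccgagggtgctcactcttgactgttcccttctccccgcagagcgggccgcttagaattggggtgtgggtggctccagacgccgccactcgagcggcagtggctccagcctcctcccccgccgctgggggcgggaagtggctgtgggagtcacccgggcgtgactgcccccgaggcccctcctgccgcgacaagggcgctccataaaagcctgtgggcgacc
Dlk1: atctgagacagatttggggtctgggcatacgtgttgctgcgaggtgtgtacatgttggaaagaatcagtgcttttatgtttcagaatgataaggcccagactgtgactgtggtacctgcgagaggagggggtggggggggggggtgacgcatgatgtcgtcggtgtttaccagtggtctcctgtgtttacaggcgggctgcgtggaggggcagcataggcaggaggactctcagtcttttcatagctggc
The Ucn3 promoter held 2 E-boxes and the Cd81 promoter 1, and none was found in those of Npy and Dlk1. Of the 8 members with a RefSeq promoter, 5 held an E-box, as did 66.2% of all 32851 promoters of this length. TATAAA, searched on both strands, was found in 1 of the 8, that of Gast, and in 12.4% of all promoters.

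Values are FPKM, fragments per kilobase of transcript per 1000000 mapped fragments, so levels can be compared between genes. Relative depth, read from the steps between low values, was 0.914 to 1.18 of the median library. 3 libraries, Flox16, Ctrl3 and Ctrl5, bear on most results. The library labelled Flox16 went against its label: Tph1, the first enzyme of serotonin synthesis, stood at 112 FPKM there, against 0.0885, 0.0318 and 0.073 FPKM in Flox17, Flox20 and Flox21 and 116 to 150 FPKM in the cKO libraries. Of 57 genes that lay more than 2 log2 units apart between the cKO libraries and the other 3 Flox libraries without overlap, Flox16 lay inside the cKO range for 26, and the same count was 7 of 21 for Flox17, 0 of 4 for Flox20 and 0 of 3 for Flox21. The chow fits of the members and the counts of the gene lists are therefore given also without Flox16. That library was singled out by its expression, so p-values without it describe the other libraries and are not independent evidence. Acinar markers, 17 of 18 of which were detected, took 7.04% to 33.5% of the summed FPKM in Flox, 34.2% to 43.1% in cKO, 2.02% to 69.7% in Ctrl and 10.3% to 13.5% in OE. Ctrl3 had the highest acinar share and only 4.37% β-cell markers, and Ctrl5 the lowest acinar share with 13.2% α-cell markers, against 3.53% to 4.15% in OE. Vtcn1, the targeted gene, had 1 to 11 fragments per Flox library and 1 to 6 per cKO library. At this depth, and with values per gene where only exon 2 is floxed, the sequencing neither showed nor excluded its deletion. The study itself reported less B7-H4 mRNA by PCR and less protein by Western blot in cKO islets. Vtcn1 stood at 40 to 128 FPKM in OE and 0.0636 to 0.371 FPKM in Ctrl.

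In chow-fed cKO islets Ucn3 and Cd81 were lower than in Flox islets, and none of the 6 members above the minimum for testing was higher. Ucn3 fell 2.11-fold and Cd81 1.88-fold on the log2(FPKM + 0.5) scale, and Aldh1a3 and Fev had lower means that did not pass the test. Of the 9 members, 6 had a mean of at least 0.5 FPKM and were tested with limma, and 2 of the 6 were called lower at an adjusted p under 0.05, where 12.8% of all 11804 genes tested were called lower and 1.02% higher. At an unadjusted p under 0.05 none of the 6 was higher, against 3.12% of all genes. Without Flox16, 3 of the 6 were lower and none higher, against 21.3% and 2.95% of 11800 genes. With the 3 libraries per group that the study used for its heatmaps, 4 of the 6 were lower, against 63.5% of 11794 genes. Both counts include Aldh1a3, which reached the minimum only through the Flox libraries (mean 0.922 FPKM, against 0.339 FPKM in cKO). The median log2 fold change of the 6 was -0.62, against -0.34 over all genes. In HFD-fed mice none of the 7 members tested was called, and 0.033% of 12132 genes were called higher and 0% lower. Their median log2 fold change was 0.76, against 0.44 over all genes. At an unadjusted p under 0.05, 1 of the 7 (Npy) was higher, as were 5.58% of all genes, with 101 genes lower. Leaving out 1 library gave 0 to 3 members called lower in cKO, and testing every gene above 0 FPKM gave 0. The acinar share did not overlap between the chow groups, with cKO above Flox, and its part in the calls was not tested. In these whole-islet samples fewer cells of a type and less RNA per cell cannot be told apart.

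**Figure D1:**
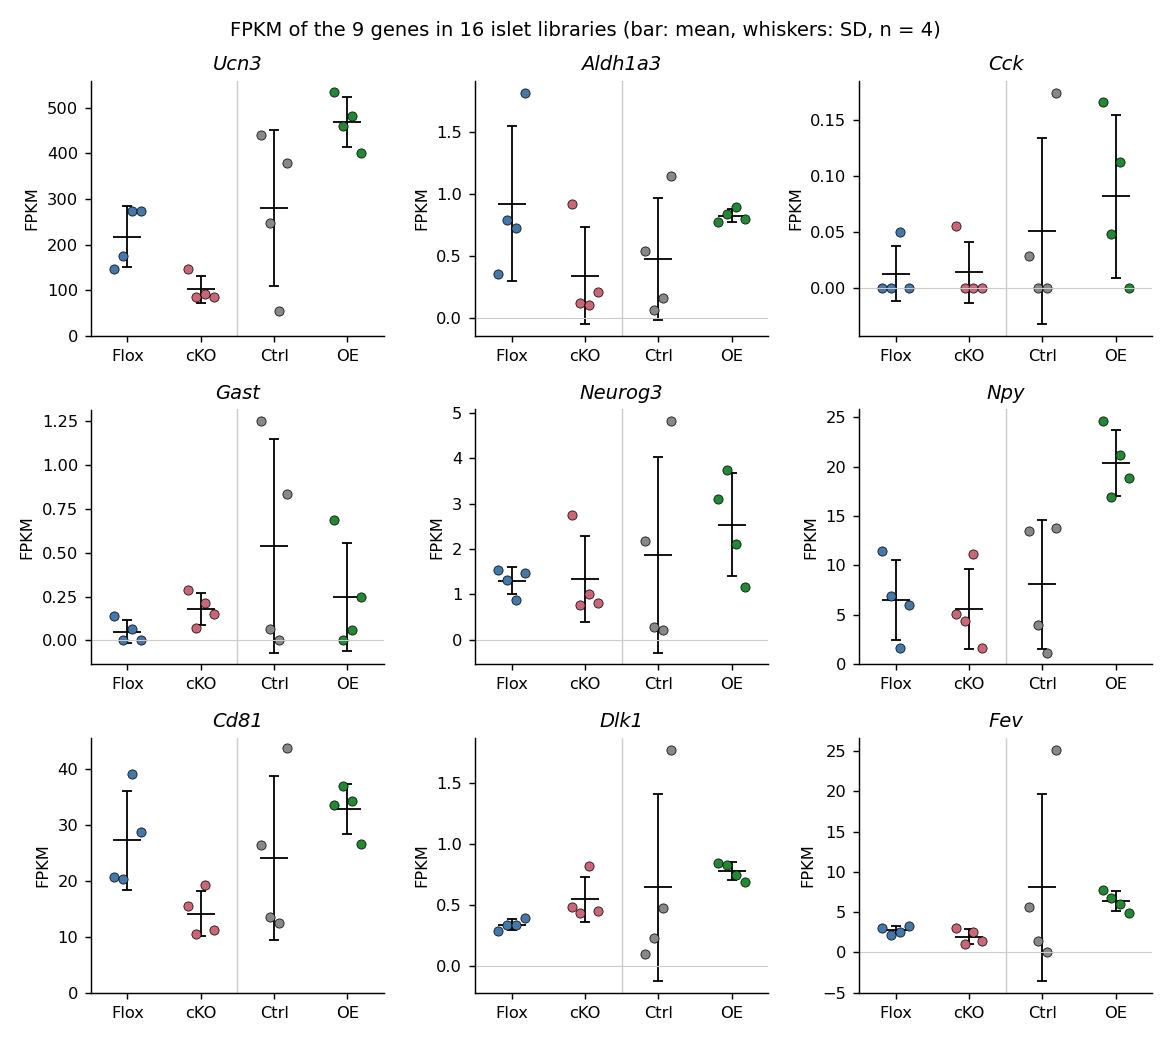
FPKM of each member (vertical axes, linear) in the 4 Flox, 4 cKO, 4 Ctrl and 4 OE libraries, with points for libraries, bars for the mean and whiskers for the SD. All 4 cKO libraries lie below all 4 Flox libraries for Ucn3 and Cd81 and above them for Dlk1, and all 4 OE libraries lie above all 4 Ctrl libraries for Npy. Over all genes 11.7% lie lower and 1.44% higher in all 4 cKO libraries, and 4.91% higher in all 4 OE libraries. For Ucn3, cKO8 and Flox16 are both 146 FPKM when rounded.

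Ucn3, the maturity marker, was the most abundant member in every group. Its level was 146, 176, 274 and 274 FPKM in Flox16, Flox17, Flox20 and Flox21 and 146, 85, 91.4 and 85.2 FPKM in cKO8, cKO9, cKO12 and cKO38. The groups touched without overlapping, and 11.7% of all 17361 genes were lower in all 4 cKO libraries. The closest libraries were cKO8 (6518 fragments, 95% Poisson interval 6361 to 6678) and Flox16 (6779 fragments, 6619 to 6942). These intervals cover counting error only. They overlap even before the lower depth of cKO8 is allowed for (relative depth 0.968, against 1), so the order of cKO8 and Flox16 is within counting error. The log2 fold change was -1.08 (SE 0.24, limma adjusted p = 0.0273), and the exact permutation test of 4 libraries against 4 gave p = 0.0286, the smallest it allows. Without Flox16 the log2 fold change of Ucn3 was -1.25 (SE 0.20, limma adjusted p = 1.79e-04, exact permutation p = 0.0571 with 4 libraries against 3). The call was lost when Flox20, Flox21, cKO9, cKO12 or cKO38 was left out (limma adjusted p of 0.0749, 0.0712, 0.0874, 0.059 and 0.0811) and when every gene above 0 FPKM was tested (limma adjusted p = 0.0838). Over the 8 fits that left out 1 library the log2 fold change was -1.26 to -0.95.

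The Ucn3 difference was smaller under other scalings and with the acinar level in the model. After median-of-ratios scaling it was -0.69 on the log2 scale (limma adjusted p = 0.0566), after rescaling to genes outside the acinar list -0.73 (limma adjusted p = 0.0745), and with the acinar level as a covariate -0.51 (limma adjusted p = 0.699). Without Flox16 the same fits gave -0.84 (limma adjusted p = 0.00375), -0.86 (limma adjusted p = 0.00586) and -0.70 (limma adjusted p = 0.204). Ucn3 was lower in cKO in each of these fits, and the part of the acinar share in its size was not tested.

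Per 1000000 FPKM of 9 β-cell markers in the same library, Ucn3 was 565, 637, 767 and 729 in the Flox libraries in the same order and 602, 430, 449 and 433 in the cKO libraries. Here cKO8 lay above Flox16 and below the other 3 Flox libraries, so that without Flox16 the groups did not overlap. The log2 difference was -0.50 (exact permutation test, p = 0.0571), so relative to β-cell markers the difference did not pass 0.05. This scale was chosen after seeing the data, and the sum is mostly Ins1 and Ins2, of which Ins2 was itself lower in cKO.

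In HFD-fed mice Ucn3 was 439, 247, 54 and 378 FPKM in Ctrl1, Ctrl2, Ctrl3 and Ctrl5 and 534, 459, 481 and 400 FPKM in OE1 to OE4. The OE libraries lay close together and only Ctrl1 reached into their range. The log2 fold change was 1.10 (SE 0.53, limma adjusted p = 0.591, exact permutation p = 0.0571 with 4 libraries per group), and 0.43 without Ctrl3 (SE 0.30, limma adjusted p = 0.998). Per 1000000 FPKM of the β-cell markers the Ctrl libraries had 1148 to 1581 and the OE libraries 1065 to 1508, with a log2 difference of -0.07 (exact permutation test, p = 0.657). Ctrl3, the lowest library in FPKM, had 1429 on this scale, inside the range of the other Ctrl libraries.

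**Figure D2:**
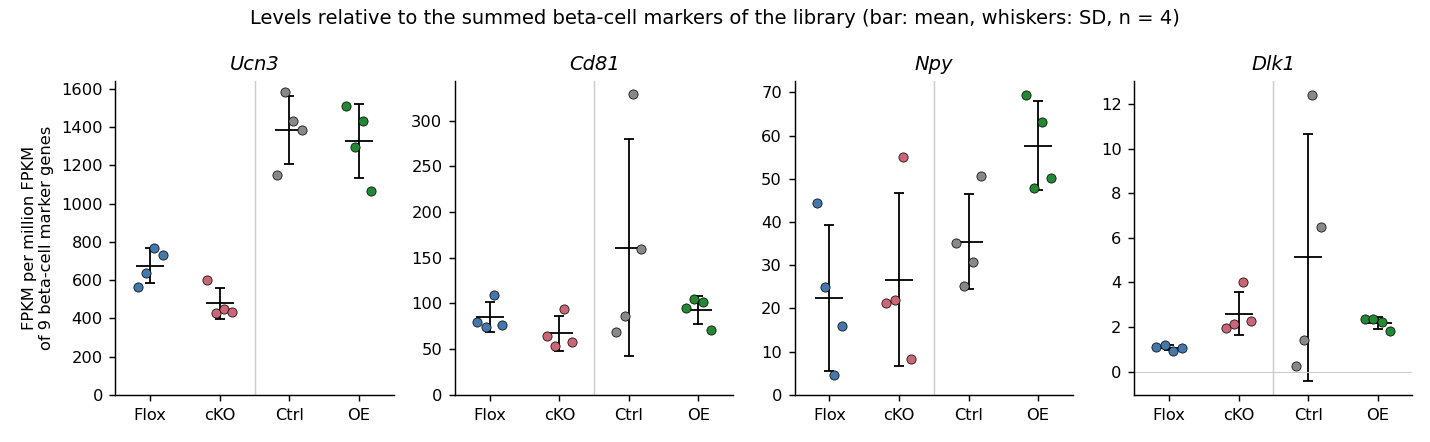
FPKM of Ucn3, Cd81, Npy and Dlk1 per 1000000 FPKM of 9 β-cell marker genes of the same library (vertical axes, linear) by group, with bars for the mean and whiskers for the SD of 4 libraries. Ctrl and OE overlap for Ucn3 (1148 to 1581 and 1065 to 1508). The cKO libraries stay above the Flox libraries for Dlk1, which follows from higher Dlk1 and a lower marker sum in every cKO library.

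Aldh1a3, Gast and Cck, the markers of dedifferentiation, were scarce. Aldh1a3 was 0.356, 0.794, 0.724 and 1.82 FPKM in Flox16, Flox17, Flox20 and Flox21 and 0.923, 0.117, 0.105 and 0.211 FPKM in cKO8, cKO9, cKO12 and cKO38. In 3 of 4 cases the cKO library lay below every Flox library, with 11 to 21 fragments against 38 to 197, and cKO8 lay above 3 Flox libraries. Aldh1a3 passed the 0.5 FPKM minimum only through the Flox group (mean 0.922 FPKM, against 0.339 FPKM in cKO). Its limma p-values in cKO are therefore a description and add no support for a fall. Its log2 fold change was -0.76 (SE 0.35, limma adjusted p = 0.122), so Aldh1a3 did not pass the test, nor was it higher in cKO. Without Flox16 it was -0.98 (SE 0.32, limma adjusted p = 0.0472), and without cKO8 -1.05 (SE 0.27, limma adjusted p = 0.0287), while it was not called without Flox17, Flox20, cKO9, cKO12 or cKO38 and fell below the minimum mean without Flox21. With all libraries it was -0.59 after median-of-ratios scaling (limma adjusted p = 0.259) and -0.18 with the acinar covariate (limma adjusted p = 0.957). Without Flox16 the scalings gave -0.77 (limma adjusted p = 0.111) and -0.79 (limma adjusted p = 0.143). Over all alternatives on log2 FPKM it ranged from -1.38 to -0.18. In HFD-fed mice it was 0.538, 0.0611, 0.164 and 1.15 FPKM in the Ctrl libraries and 0.776, 0.84, 0.893 and 0.796 FPKM in the OE libraries. The OE values fell within the wide Ctrl range, and the log2 fold change was 0.57 (SE 0.36, limma adjusted p = 0.591), with 0.34 without Ctrl2 and 0.86 without Ctrl5.

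Gast was below the minimum for testing in both tables. Its fragments numbered 2, 0, 1 and 0 in the Flox libraries and 4, 1, 3 and 2 in the cKO libraries, and the exact permutation test on log2(FPKM + 0.5) with 4 libraries per group gave p = 0.0571. Without Flox16 it gave the same p of 0.0571 by exact permutation. The groups then did not overlap in FPKM, but Flox20 and cKO9 tied at 1 fragment each. Nearly all of these counts are at the level of a few fragments, so no fold is given. In the HFD-fed mice Gast had 17, 1, 0 and 11 fragments in the Ctrl libraries and 11, 0, 1 and 4 in the OE libraries (exact permutation p = 0.514 with 4 libraries per group). Ctrl1, Ctrl5 and OE1 held the most, 1.25, 0.835 and 0.684 FPKM.

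Cck had 0 to 2 fragments in every chow library, which is too few for a comparison. In HFD-fed mice it had 1, 0, 0 and 6 fragments in Ctrl1, Ctrl2, Ctrl3 and Ctrl5 and 7, 2, 5 and 0 in OE1 to OE4 (exact permutation p = 0.657 with 4 libraries per group). The highest level in any library was 0.175 FPKM, in Ctrl5. Of 4 enteroendocrine markers, Gip and Nts were at 0 in all 16 libraries. The other 2 were detected in each group below the minimum mean, with Sct highest at 0.526 FPKM in cKO8.

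Neurog3, the progenitor factor, was 1.53, 1.32, 0.877 and 1.47 FPKM in the Flox libraries and 2.75, 0.776, 1.01 and 0.8 FPKM in cKO8, cKO9, cKO12 and cKO38. The highest and the lowest value were both in cKO, and the groups overlapped. Its log2 fold change was -0.07 (SE 0.27, limma adjusted p = 0.831), -0.01 without Flox16 (SE 0.28, limma adjusted p = 0.98), and 0.18 after median-of-ratios scaling, so it had no stable sign. In HFD-fed mice Neurog3 was 2.18, 0.289, 0.213 and 4.82 FPKM in the Ctrl libraries and 3.11, 3.75, 2.11 and 1.16 FPKM in the OE libraries. Ctrl2 and Ctrl3, the acinar-rich libraries, were far below the rest, and Ctrl5 was the highest of all. Between OE and Ctrl the log2 fold change was 0.76 (SE 0.55, limma adjusted p = 0.591), with 0.40 without Ctrl2, 0.35 without Ctrl3 and 1.32 without Ctrl5 (SE 0.47, limma adjusted p = 0.235). The exons of Neurog3 overlap those of Fam241b on the opposite strand in the GENCODE annotation, and Fam241b was listed at 1.36 to 8.05 FPKM; whether the counting used strand was not stated.

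Fev, which follows Neurog3 in the endocrine lineage, was 3.02, 2.18, 2.48 and 3.25 FPKM in the Flox libraries and 3.02, 0.982, 2.48 and 1.36 FPKM in cKO8, cKO9, cKO12 and cKO38. Of the cKO libraries 2 lay inside the Flox range and 2 below it. Its log2 fold change was -0.47 (SE 0.24, limma adjusted p = 0.146), and -0.42 without Flox16 (SE 0.25, limma adjusted p = 0.191). It was -0.16 after median-of-ratios scaling, -0.19 after non-acinar rescaling and -0.01 relative to the β-cell markers, and leaving out 1 library gave -0.67 to -0.25. Without Flox16 and with the acinar covariate it was -0.02. In HFD-fed mice Fev had the widest spread of the members, with 5.63, 1.38, 0.0663 and 25.2 FPKM in Ctrl1, Ctrl2, Ctrl3 and Ctrl5, from 3 to 1072 fragments. The OE libraries lay between 4.88 and 7.77 FPKM, inside that range. The log2 fold change of 0.91 (SE 0.89, limma adjusted p = 0.622) was 0.60 without Ctrl2, 0.02 without Ctrl3 (SE 0.89, limma adjusted p = 0.999) and 1.86 without Ctrl5 (SE 0.60, limma adjusted p = 0.235).

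**Figure D3:**
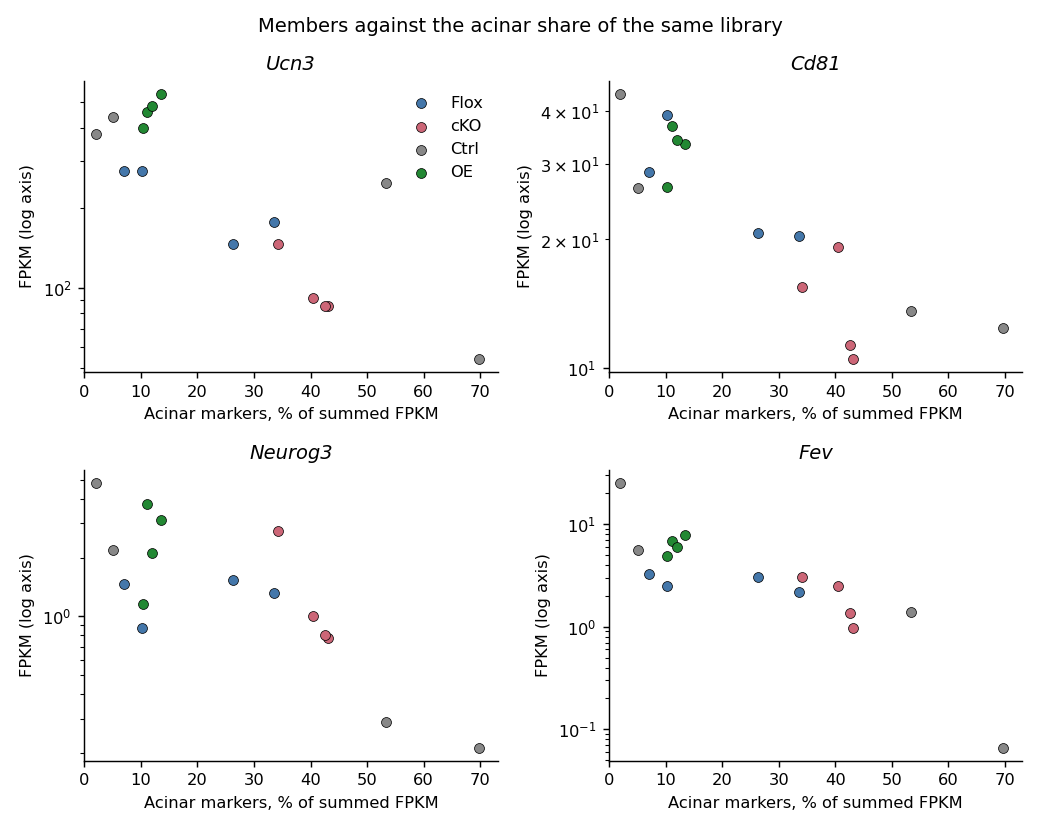
FPKM of Ucn3, Cd81, Neurog3 and Fev (vertical log axes) against the share of summed FPKM in 18 acinar marker genes (horizontal axes, percent), with one point per library and colours for the groups. The libraries richest in acinar markers, Ctrl3 (69.7%) and Ctrl2 (53.4%), are low for Neurog3, Fev and Cd81. For Ucn3, Ctrl3 is the lowest of all libraries at 54 FPKM, while Ctrl2 has 247 FPKM.

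Cd81, a tetraspanin of the cell surface, was 20.7, 20.4, 39.1 and 28.8 FPKM in the Flox libraries and 15.5, 10.5, 19.2 and 11.3 FPKM in cKO8, cKO9, cKO12 and cKO38. Every cKO library was below every Flox library, as for 11.7% of the 17361 genes of the chow table. The log2 fold change was -0.91 (SE 0.23, limma adjusted p = 0.0253, exact permutation p = 0.0286 with 4 libraries per group), and -1.02 without Flox16 (SE 0.23, limma adjusted p = 0.00226, exact permutation p = 0.0571 with 4 libraries against 3). Without Flox20, Flox21, cKO9 or cKO38 it was not called (limma adjusted p of 0.0693, 0.0769, 0.0902 and 0.0833), nor with every gene tested (limma adjusted p = 0.0852). Median-of-ratios scaling brought it to -0.54 (limma adjusted p = 0.105), or -0.63 without Flox16 (limma adjusted p = 0.0492), and the acinar covariate to -0.44 (limma adjusted p = 0.806), or -0.52 without Flox16 (limma adjusted p = 0.55). Non-acinar rescaling gave -0.58 (limma adjusted p = 0.142), or -0.65 without Flox16 (limma adjusted p = 0.0806). The Cd81 difference was negative in each of these fits, and of the fits under scaling or with the covariate it was called in 1, median-of-ratios scaling without Flox16. Per 1000000 FPKM of the β-cell markers Cd81 was 74 to 109 in Flox and 53.1 to 94.4 in cKO, with overlap also without Flox16 (log2 difference -0.35, exact permutation p = 0.171 with 4 libraries per group).

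In HFD-fed mice Cd81 was 26.4, 13.6, 12.4 and 43.8 FPKM in the Ctrl libraries and 33.5, 37, 34.2 and 26.5 FPKM in the OE libraries. The groups overlapped through Ctrl5, the highest library, and the log2 fold change was 0.62 (SE 0.47, limma adjusted p = 0.593), with 0.41 without Ctrl2, 0.37 without Ctrl3 and 0.96 without Ctrl5. Relative to the β-cell markers the direction turned, to a log2 difference of -0.53 (exact permutation p = 0.429 with 4 libraries per group), with Ctrl3 the highest at 329 per 1000000. Cd81 is also made by many other cell types, and its sources were not separated here. Its exons overlap those of R74862 on the opposite strand in the annotation.

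Npy was 11.5, 6.87, 1.64 and 5.98 FPKM in the Flox libraries and 5.14, 4.34, 11.2 and 1.63 FPKM in cKO8, cKO9, cKO12 and cKO38. The groups covered the same range, and the log2 fold change was -0.21 (SE 0.71, limma adjusted p = 0.823), or 0.13 without Flox16 (SE 0.74, limma adjusted p = 0.9). In HFD-fed mice Npy was 13.5, 3.93, 1.16 and 13.8 FPKM in the Ctrl libraries and 24.6, 16.9, 21.2 and 18.8 FPKM in the OE libraries. Every OE library was above every Ctrl library, as for 4.91% of the 17318 genes of that table, while 1.05% were lower in every OE library and no member was. The log2 fold change, 1.74 (SE 0.58, unadjusted p = 0.00722), was the largest of the members and missed the adjusted threshold (limma adjusted p = 0.591, exact permutation p = 0.0286 with 4 libraries per group).

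Npy stayed higher in OE when the most acinar-rich library was left out and under scaling, though by less. Without Ctrl3 the log2 fold change was 1.11 (SE 0.36, limma adjusted p = 0.643), and after median-of-ratios scaling 1.28 (SE 0.29, limma adjusted p = 0.0841). With the acinar level as a covariate it was 1.57 (SE 0.28, limma adjusted p = 0.0309), a fit in which 12.9% of all genes were called higher. Per 1000000 FPKM of the β-cell markers Npy was 35.2, 25.1, 30.7 and 50.7 in the Ctrl libraries and 69.4, 47.9, 63.2 and 50.2 in the OE libraries, where Ctrl5 lay above 2 OE libraries (exact permutation p = 0.0857 with 4 libraries per group). Npy is also a peptide of autonomic neurons, and markers of peripheral neurons moved the same way: their summed share was 0.00555% to 0.00609% in OE and 5.84e-04% to 0.00496% in Ctrl. All 10 of these markers were detected in OE and 7 of 10 in Ctrl, where Chat, Slc18a3 and Dbh were at 0. Their part in the Npy difference was not tested.

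Of the members, Dlk1 alone stood higher in the cKO libraries than in the Flox libraries without overlap. It was 0.284, 0.333, 0.336 and 0.39 FPKM in Flox16, Flox17, Flox20 and Flox21 and 0.48, 0.427, 0.819 and 0.447 FPKM in cKO8, cKO9, cKO12 and cKO38, that is 43 to 60 fragments against 62 to 122. Of the 17361 genes of that table, 1.44% were higher in all 4 cKO libraries, and 11.7% were lower in all 4. The exact permutation test of 4 libraries against 4 gave p = 0.0286, the smallest possible, for a difference of 0.31 on the log2(FPKM + 0.5) scale, which understates a change at this level.

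Dlk1 was below the minimum mean for the main test. With every gene tested its limma adjusted p was 0.154, and 0.225 without Flox16, so it was not called across genes. The difference was 0.48 on the log2 scale after median-of-ratios scaling and 0.58 relative to the β-cell markers, without overlap on either scale (exact permutation p = 0.0286 each with 4 libraries per group). The β-cell markers took 25.8% to 32.8% of the summed FPKM in cKO and 35.4% to 54.7% in Flox. Their sum was lower in every cKO library, so dividing by it could only widen the gap and adds no separate support. Without Flox16 the difference was 0.28 on the log2(FPKM + 0.5) scale (exact permutation p = 0.0857 with 4 libraries against 3). cKO12 stood apart at 0.819 FPKM, and without it the difference was 0.19 (exact permutation p = 0.0571 with 3 libraries against 4). Dlk1 in HFD-fed mice was 0.0984, 0.222, 0.47 and 1.77 FPKM in the Ctrl libraries and 0.838, 0.828, 0.742 and 0.681 FPKM in the OE libraries. The OE libraries lay above all Ctrl libraries but Ctrl5, and the log2 fold change was 0.36 (SE 0.38, limma adjusted p = 0.634). It was 0.03 after median-of-ratios scaling, 0.12 without Ctrl1, 0.21 without Ctrl2 and 0.76 without Ctrl5 (limma adjusted p = 0.235). Without Ctrl5 the groups did not overlap for Dlk1, Aldh1a3, Cd81 and Npy. At an unadjusted limma p under 0.05, 2358 of 11924 genes were higher in that fit, against 677 of 12132 with all libraries. The share of all genes without overlap there was not counted.

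**Figure D4:**
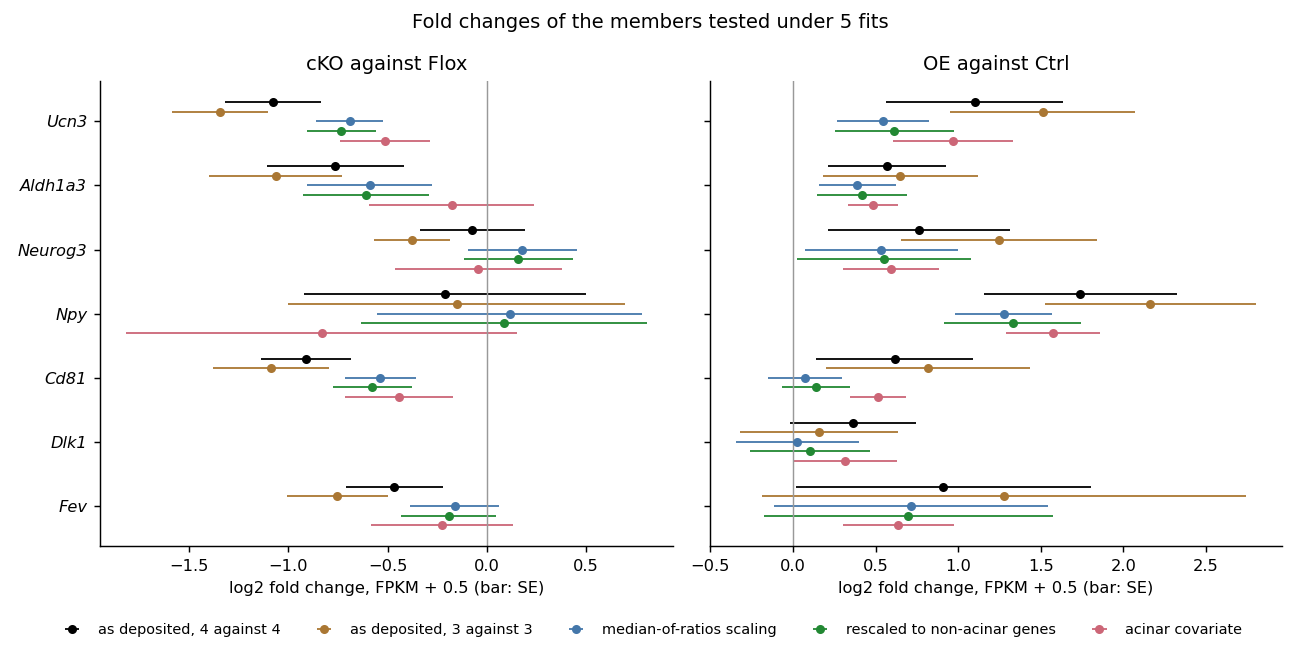
Log2 fold changes on the FPKM + 0.5 scale (horizontal axes, points with SE bars) of the members tested, for cKO against Flox and OE against Ctrl, in 5 fits named by colour. Ucn3 stays below 0 in cKO and Npy above 0 in OE in every fit shown, while Neurog3 and Npy change sign in cKO.

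The genes that surround the members in their pathways were described by lists. Their counts stand beside 12.8% of all genes called lower and 1.02% higher in cKO, or 21.3% and 2.95% without Flox16. Of 22 genes of mature β cells, 7 were called lower and 0 higher in cKO (12 and 0 without Flox16), with a median log2 fold change of -0.51 against -0.34 over all genes. Among those called were Slc30a8, the zinc transporter of insulin granules (-0.81, SE 0.16, limma adjusted p = 0.0141), Iapp, the amyloid peptide co-secreted with insulin (-0.80, SE 0.19, limma adjusted p = 0.0344), and Ins2 (-0.72, SE 0.12, limma adjusted p = 0.00744). Ins2 stood at 120477 to 148534 FPKM in cKO and 173310 to 250591 FPKM in Flox, without overlap, as for 11.7% of all genes. None of the 8 transcription factors of the list was called with all libraries: Esrrg (-0.67, limma adjusted p = 0.0562), Neurod1 (-0.60), Isl1 (-0.56, limma adjusted p = 0.0501), Pax6 (-0.52, limma adjusted p = 0.0543), Nkx6-1 (-0.38), Mafa (-0.08), Nkx2-2 (0.06) and Pdx1 (0.33). Without Flox16, Esrrg (-0.86, limma adjusted p = 0.0051), Isl1 (-0.64, limma adjusted p = 0.0229) and Pax6 (-0.57, limma adjusted p = 0.0359) were called. The factors were named after their values were seen, and Esrrg passed the 0.5 FPKM minimum only through Flox (mean 1.15 FPKM, against 0.499 FPKM in cKO). In OE none of the 22 was called, all 22 had positive log2 fold changes, and their median was 1.09 against 0.44. The share of all genes with a positive sign was not counted. The 22 values come from the same libraries, so their signs are not independent.

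Of the 8 genes tested in the list of immature or dedifferentiated β cells, 2 were called in cKO, both lower: Gc, the vitamin D-binding protein (16.9 ± 3.92 FPKM in cKO and 35.3 ± 11 FPKM in Flox, mean ± SD of 4 libraries, limma adjusted p = 0.0242), and the intermediate filament Vim (-0.74, SE 0.22, limma adjusted p = 0.0362). Both were also called without Flox16. The cells that made the Gc and Vim transcripts were not separated in these whole islets. None of the 8 was higher, with Myc at 0.55 (limma adjusted p = 0.0539). In the list around Aldh1a3, retinoic acid synthesis and signalling, 1 of 8 was called: Dhrs3, which reduces retinal back to retinol, was higher in cKO (0.77, SE 0.20, limma adjusted p = 0.0253). Its values were 2.88 to 3.78 FPKM in cKO and 1.27 to 2.31 FPKM in Flox, without overlap, as for 1.44% of all genes. Without Flox16, Dhrs3 (0.85) and, lower, the retinoid receptor Rxra (-1.15) were called.

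None of 8 endocrine progenitor genes around Neurog3 was called in cKO with all libraries, and 1 higher and 2 lower were without Flox16. Gadd45a, a growth-arrest gene, was 15.3 to 18 FPKM in cKO and 3.13 to 28.8 FPKM in Flox, with log2 fold changes of 1.26 (limma adjusted p = 0.188) with all libraries and 1.93 without Flox16. Sox4, an HMG-box factor of endocrine differentiation, had -1.62 (limma adjusted p = 0.0942) and -2.10, and Rfx6 -0.92 (limma adjusted p = 0.0702) and -1.15. In the serotonin list around Fev, with all libraries, Gch1 (-0.83, SE 0.24, limma adjusted p = 0.0414), which makes the cofactor of tryptophan hydroxylase, and Maob (-0.55, SE 0.17, limma adjusted p = 0.0423), which degrades amines, were lower and none of 9 was higher. Without Flox16, Gch1 was called (-0.93) and Maob was not (-0.46, limma adjusted p = 0.0672). Tph1 was not called with all libraries (5.97, SE 1.88, limma adjusted p = 0.0723). Since Flox16 was singled out by its Tph1 level, the Tph1 difference without it (7.88) is a description with no test. Tph2 had 1.23 with all libraries (limma adjusted p = 0.135) and 1.67 without Flox16, and Lmx1b, a factor that acts with Fev in serotonergic neurons, had a limma adjusted p of 0.0571 with all libraries and a log2 fold change of -1.34 without it. Fev itself was not called without Flox16 (-0.42).

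Of the receptors and related peptides of Ucn3, Cck, Gast and Npy, 3 of 14 reached the minimum in the chow table and none was called, with 1 higher and 1 lower without Flox16. Cckar, the receptor of cholecystokinin, was 38.3 to 60.4 FPKM in cKO and 13.2 to 39.7 FPKM in Flox (1.10, SE 0.36, limma adjusted p = 0.0677, and 1.29 with limma adjusted p = 0.031 without Flox16). It is also known from acinar cells, whose markers were higher in cKO. In the Notch list around Dlk1, 1 of 7 was called, the ligand Jag2 (-0.68, SE 0.19, limma adjusted p = 0.0321), with the receptor Notch3 (-0.63) added without Flox16. Among tetraspanins, partners of Cd81 and β-cell subset markers, 2 of 11 were lower in cKO, Cd63 (-0.76, SE 0.21, limma adjusted p = 0.0407) and St8sia1 (-0.70, SE 0.20, limma adjusted p = 0.0317), the latter a ganglioside synthase, and 5 of 11 were lower without Flox16. St8sia1 passed the 0.5 FPKM minimum only through Flox (mean 1.06 FPKM, against 0.437 FPKM in cKO). The counts of the tetraspanin, Notch and serotonin lists are of a few genes and stand beside 12.8% of all genes lower, or 21.3% without Flox16. In HFD-fed mice no gene of any of these lists was called.

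**Figure D5:**
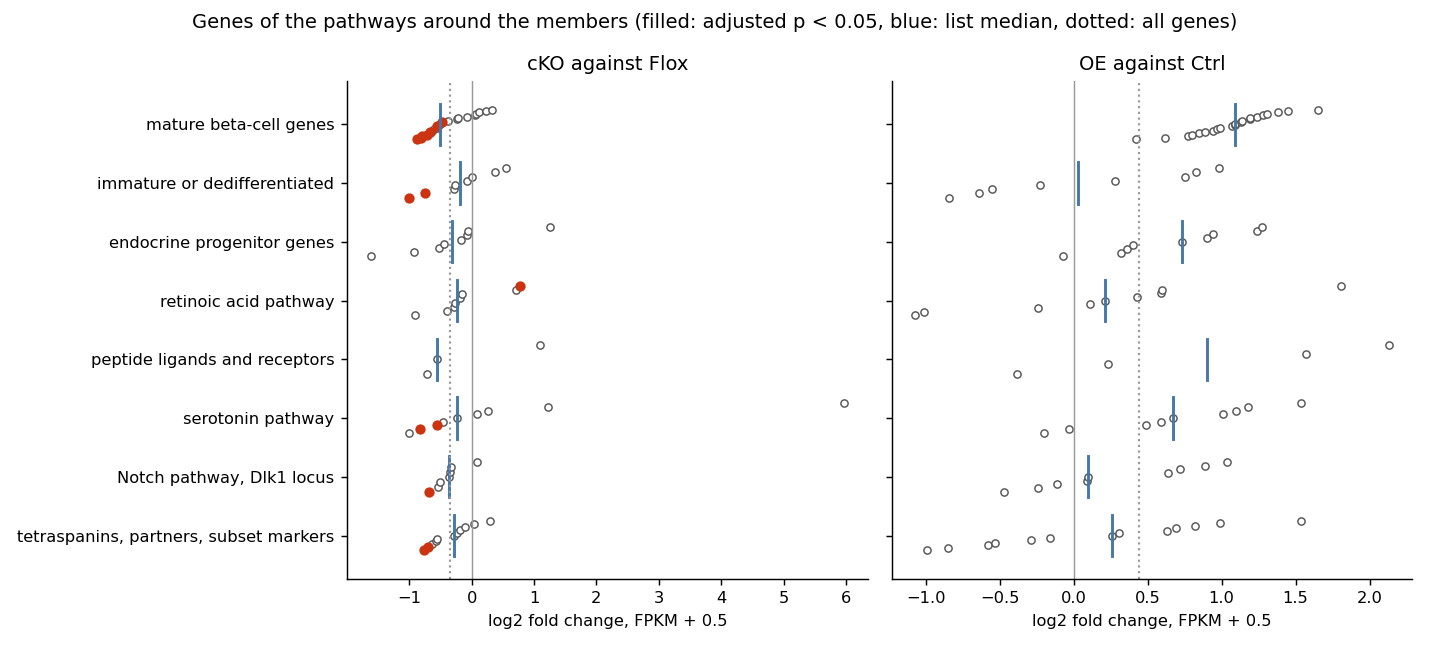
Log2 fold changes on the FPKM + 0.5 scale (horizontal axes) of the genes of 8 pathway lists (rows) in cKO against Flox and OE against Ctrl, with 1 point per gene tested, filled where limma gave an adjusted p under 0.05, a blue line at the list median and a dotted line at the median of all genes. In cKO 7 of 22 mature β-cell genes are filled and lower, Dhrs3 is the filled gene that is higher, and Tph1 is the open point far to the right.

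The members followed different genes across the 16 libraries. Each table was centred on its own mean and compared over the 10388 genes whose mean reached 1 FPKM in both. The genes most like Ucn3 were Slc12a7 (Pearson r = 0.990), Hepacam2 (r = 0.986) and Sgpp2 (r = 0.984), which stayed its closest 3 after median-of-ratios scaling (r = 0.965, 0.945 and 0.938). Those most like Fev were Isyna1 (r = 0.983), Ache (r = 0.981) and Tcp11 (r = 0.978), and those most like Cd81 were Kifc3 (r = 0.953), Stard10 (r = 0.950) and Mrps35 (r = 0.950). Neurog3 was closest to Bloc1s2 (r = 0.925), Zfp689 (r = 0.916) and Zfp395 (r = 0.914), with Fev 12th at r = 0.894. Npy was closest to Slc7a8 (r = 0.897), Bend7 (r = 0.882) and Pias4 (r = 0.871). After the same scaling several of these likenesses were weak, with r = 0.166 for Isyna1 and Fev, 0.142 for Bloc1s2 and Neurog3 and 0.282 for Slc7a8 and Npy. The libraries share their acinar level in these values, and the correlation of the members with the log2 acinar level ran from -0.458 for Npy to -0.841 for Fev. These correlations describe the libraries and carry no test.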

How the data were processed

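Total islet RNA was sequenced on an Illumina NovaSeq instrument, and the authors deposited FPKM values per gene in 1 table for cKO and Flox and 1 for OE and Ctrl. Per the processing notes the build was mm10. The aligner, counter and annotation are not given in the sources used here. Every library was used as labelled, and every value column belonged to a library. Whole fragments of the members were recovered from the steps between low values (tolerance 0.003 of a fragment), with 95% Poisson intervals (scipy 1.17.1) that cover counting error only.

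Each table was fitted separately with limma 3.58.1 (R 4.3.3; variance trend, robust) on log2(FPKM + 0.5) for genes whose mean over the libraries reached 0.5 FPKM. Two-sided p-values were adjusted over all genes tested (Benjamini-Hochberg), and a gene was called under 0.05. Single members were also compared by two-sided exact permutation of the libraries (numpy 2.4.6, Python 3.11.15). The fits were tested on simulated data. The members and lists were chosen with earlier results of these data known. Named genes were all members, Vtcn1, the called genes of each list (at most 4 per list and comparison, by fold change) and the 3 genes most like each member whose mean reached 1 FPKM in both tables. 1 gene that this rule names is not reported here. Alternatives were pseudocounts of 1 and 0.1, other minimum means, median-of-ratios and non-acinar scaling, an acinar covariate, a replicate block, no trend, a fold minimum, the 3 libraries per group of the study's heatmaps and each library left out. Fits without Flox16 under other scalings, and levels relative to the β-cell markers, were added after seeing the data. Positions are from GENCODE vM21 and promoters from RefSeq (GRCm38.p6), which matched 8 of 9 members.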

Additional observations from a re-analysis of the deposited data

Results flagged for a closer look

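In groups of 4 libraries, 1 value stood apart from the other 3 in 7 of 36 groups examined. For normally distributed values chance gives about 1 in 20 such groups. Unlogged FPKM were used and the groups share libraries, so this rate is only a rough guide. It does not hold for Cck, where a few fragments in 1 library beside zeros are enough. 4 of the 7 were in cKO8: Ucn3 at 146 FPKM (the other cKO libraries 85 to 91.4), Aldh1a3 at 0.923 FPKM (0.105 to 0.211), Neurog3 at 2.75 FPKM (0.776 to 1.01) and Cck at 0.0549 FPKM, listed at 0 in the others. Dlk1 stood apart in cKO12 at 0.819 FPKM, against 0.427 to 0.48. Cck did so in Flox20 at 0.0499 FPKM, with the other Flox libraries at 0, and in Ctrl5 at 0.175 FPKM, against 0 to 0.0282. The Cck values rest on 2, 2 and 6 fragments.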

How the results depend on the processing

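Of the chow calls, Ucn3 and Cd81 had negative log2 fold changes in every limma alternative run (Ucn3 -1.34 to -0.51, Cd81 -1.09 to -0.44) and relative to the β-cell markers (-0.50 and -0.35). The number of members called in cKO, 2, became 0 when every gene above 0 FPKM was tested, after median-of-ratios scaling, after rescaling to genes outside the acinar list and with the acinar covariate, 1 with a fold minimum and 4 with the 3 libraries per group of the heatmaps, where 63.5% of all genes were called lower. Leaving out 1 library gave 0 to 3, with 0 without Flox20, Flox21, cKO9 or cKO38, 1 without cKO12 and 3 without Flox16 or cKO8. Without Flox16 it was 1 with non-acinar rescaling or every gene tested, and 0 with the acinar covariate. Over all genes 1511 were called lower and 120 higher, against 147 and 133 after median-of-ratios scaling, which moved the median log2 fold change from -0.34 to -0.00, 32 and 67 after non-acinar rescaling and 0 and 0 with the acinar covariate (525 and 316 at an unadjusted p under 0.05). In OE the 0 members called became 1 (Npy) with the acinar covariate and stayed 0 in the other alternatives, and median-of-ratios scaling moved the median of all genes from 0.44 to -0.01.

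Directions turned for uncalled members, and the cause was not tested. In cKO Neurog3 was 0.18 after median-of-ratios scaling, 0.16 after non-acinar rescaling and 0.31 relative to the β-cell markers, and Npy 0.12, 0.09 and 0.29. Without Flox16 Neurog3 was 0.25 with either scaling and 0.12 with the acinar covariate, and Npy was 0.47, 0.46 and 0.13 with median-of-ratios scaling, non-acinar rescaling and every gene tested. Leaving out 1 library gave Neurog3 -0.39 to 0.06 and Npy -0.70 to 0.21. In OE the levels relative to the β-cell markers gave Ucn3 -0.07, Cd81 -0.53 and Dlk1 -0.41.

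Same-numbered libraries did not deviate together (correlations -0.215 to 0.122 in the chow table and -0.132 to 0.102 in the HFD table, with 0 of 4 and 1 of 4 closest to their own number), so the numbers do not pair them. With the replicate block 3 members were called in cKO (Aldh1a3, -0.76, besides Ucn3 and Cd81) and 0 in OE, and 2455 genes were lower. Scaling left 1 of 3 closest genes for Neurog3, Npy and Cd81. Depth limits Cck and Gast, with at most 7 and 17 fragments.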

Other observations

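Relative to the β-cell markers of the same library, Ucn3 was 430 to 767 FPKM per 1000000 in the 8 chow libraries and 1065 to 1581 per 1000000 in the 8 HFD libraries, without overlap. The groups differ in diet, virus and table and were not compared by a test, so these cannot be told apart. The share of all genes that separate in this way was not counted, so Ucn3 cannot be called unusual here. Htr3a, a serotonin receptor channel named here after its values were seen, was 0.885 to 1.21 FPKM in OE and 0 to 0.0325 FPKM in Ctrl. Over all genes 4.91% were higher in every OE library than in every Ctrl library. Htr3a passed the 0.5 FPKM minimum only through OE (mean 0.996 FPKM, against 0.0123 FPKM in Ctrl). It was not called (limma adjusted p = 0.0834), and that p-value is no support for a difference.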
